A study of Mus musculus with 24 samples.

Results

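Integrins, laminins and collagens connect a cell to the matrix around it. The genes described here encode chains of these proteins, together with the nidogens (Nid1, Nid2), perlecan (Hspg2), Sparc and fibronectin (Fn1). A gene was taken when its symbol began with Itga, Itgb, Lama, Lamb or Lamc and a number, when it had the form of a collagen chain symbol, or when it was 1 of those 5 genes, and when it had counts in both deposited datasets. In all, 82 of 29737 genes with counts in both met this rule. They comprise 12 integrin alpha chains, 8 integrin beta chains, 11 laminin chains, 8 chains of the basement membrane collagens (types IV, XV and XVIII), 11 fibrillar collagen chains, 24 other collagen chains and the 5 glycoprotein and perlecan genes. The symbols also brought in 3 genes that encode no integrin chain (Itgb1bp1, Itgb1bp2 and Itgb3bp), which are counted apart. Integrin symbols with a letter, such as Itgav, were not matched.

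A laminin is a trimer of an alpha, a beta and a gamma chain. Laminin and the collagen IV network form the basement membrane, the thin sheet on which epithelia sit, and nidogen and perlecan connect them. Integrins are alpha-beta dimers in the plasma membrane: those with Itga3 or Itga6 bind laminin, and Itga5 with Itgb1 binds fibronectin. The early mouse embryo builds its laminin from Lama1 or Lama5 with Lamb1 and Lamc1. m6A is a methyl mark on adenosines of RNA, written by a complex in which Mettl3 is the catalytic subunit and Mettl14 its partner.

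The study compared 4 lines of mouse ES cells (129/Sv x C57Bl6), grown on gelatin with Serum Replacement and LIF, with 2 replicates in each group. WT26, a wild-type line, is the control of Mettl14 KO, a single CRISPR clone (A10) derived from it that has a homozygous frame-shift deletion in Mettl14 and had also received a Mettl3 guide. RBC, which carries Rosa26 BirA-V5 and Cre-ERT2, is the control of Mettl3 KO, a clone (2c4d) derived from RBC that carries the same insertions. RNA-seq gave 8 libraries. MeRIP-seq gave 16, namely RNA fragments precipitated with an m6A antibody (IP) and the fragments before precipitation (input) of each line. The study's methods describe nuclear RNA, whereas the labels say total RNA. Since each knockout is 1 clone, the effect of the lost gene and of the clone cannot be told apart, nor can, in bulk RNA, fewer cells of a type and less RNA per cell.

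Library totals were 11321459 to 13743181 counts in RNA-seq and 9394163 to 28441282 in MeRIP-seq. The RBC replicates of RNA-seq lay further apart than those of the other lines (chi-square over its degrees of freedom 35.6, against 2.76 to 5.75). Counts per gene did not check the genotypes. Mettl14 had 401 and 358 normalized counts in WT26 and 296 and 316 in Mettl14 KO (−0.31 ± 0.087, adjusted p = 0.00609), and for Mettl3 RBC had 928 and 979, its knockout 880 and 821 (−0.16 ± 0.071, adjusted p = 0.0588). Normalized counts are counts divided by the size factor of a library, and differences are log2 fold changes ± SE. Adjusted p-values are from edgeR's quasi-likelihood test with Benjamini-Hochberg adjustment over all features. A gene is said to rise or fall when its adjusted p was at most 0.05 and its fold change exceeded 1 on the log2 scale in size, and to be higher or lower when it met the limit on p alone.

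In RNA-seq 61 of the 82 members passed the filter on low counts and 21 did not. Those left out were 5 integrin chains, Lamc3 and 15 collagens. Col3a1, a fibrillar collagen of skin and vessels, was at 0 in the 6 libraries outside Mettl3 KO. In all, 27 members had a mean under 10 normalized counts, and 42 reached a mean of 50.

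Most laminin, collagen IV and nidogen genes with more than a few counts were lower in both knockouts, and more of them passed the size limit in Mettl3 KO. In Mettl14 KO 9 members fell and 5 rose (3 without replicate 1 of WT26), against 6.57% and 7.95% of the 17021 genes tested. In Mettl3 KO 19 members fell and 4 rose, against 7.43% and 6.15%. Both knockouts shared 7 falls and 1 rise (Col20a1), a further 12 members fell in Mettl3 KO alone and 2 in Mettl14 KO alone, and 0 were called in opposite directions. Over all genes tested these classes held 2.06% (falls in both), 1.64% (rises in both), 5.38% (falls in Mettl3 KO alone), 4.51% (falls in Mettl14 KO alone) and 1.09% (opposite directions). On the limit for p alone, 31 members were lower in Mettl14 KO (27.0% of all genes) and 38 in Mettl3 KO (28.1%), and 28 were lower in both (13.3%). The tested members had a median of −0.32 in Mettl14 KO, where all genes had one of 0. In Mettl3 KO the members had a median of −0.72 and all genes one of −0.0016. Scaling by library size in place of size factors moved the median of all genes in Mettl3 KO from −0.0016 to 0.15. On that scale 14 members fell and 4 rose, Col4a1, Col5a3, Itgb1 and Nid1 being among those no longer called, and the share of rises among all called genes went from 45.3% to 60.5%.

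**Figure D1:**
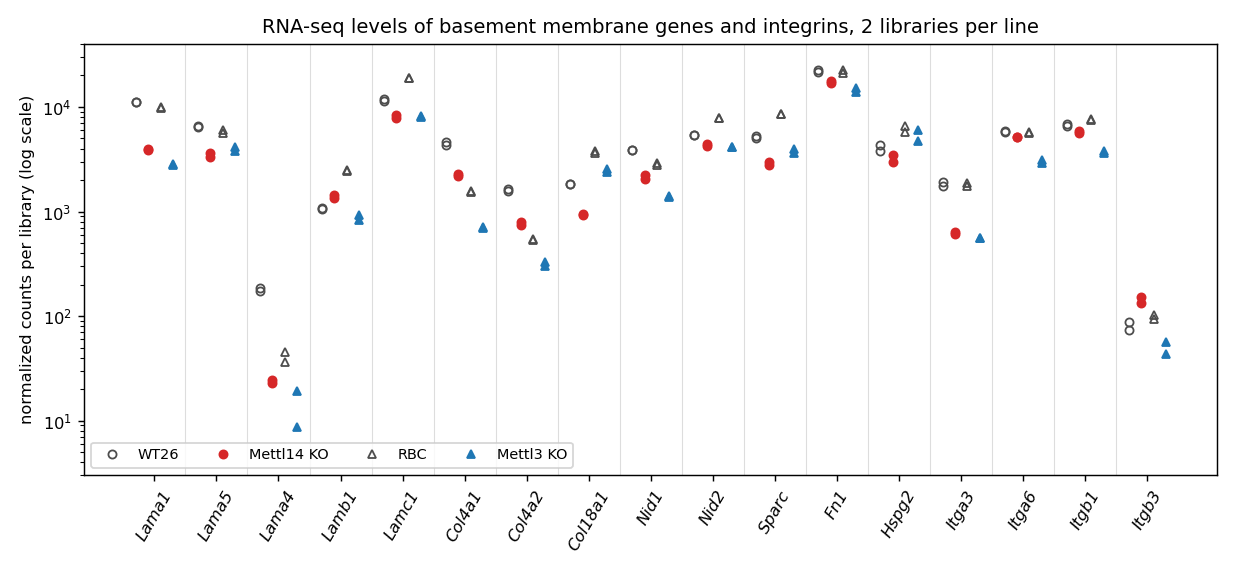
Normalized counts (log scale) of 17 members in each of the 8 RNA-seq libraries, grouped by line, with 1 point per library. Lama1 and Itga3 stand lower in both knockouts than in their controls, whereas Lamb1 stands above WT26 in Mettl14 KO and below RBC in Mettl3 KO.

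Among the families laminin had the most falls in Mettl3 KO. All 10 tested chains were lower in Mettl3 KO, 7 of them past the size limit, and 7 were lower in Mettl14 KO, 2 of them past it. Lama1, the alpha chain of the earliest embryonic laminin (chr17:67697259-67822647, GRCm38), had 11274 and 11271 normalized counts in WT26 and 3894 and 3960 in its knockout. RBC had 9795 and 9900 and its knockout 2829 and 2761. Replicates nearly coincided, and every knockout library lay far below every control library. Lama1 was left at 34.8% of the control in Mettl14 KO (−1.52 ± 0.050, adjusted p = 1.78e-13) and at 28.4% in Mettl3 KO (−1.82 ± 0.050, adjusted p = 8.40e-15).

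Lama5, the alpha chain of many later basement membranes, was lower by less. WT26 had 6615 and 6444 normalized counts and Mettl14 KO 3302 and 3589, a lower level short of the size limit (−0.92 ± 0.059). RBC had 6012 and 5619 and Mettl3 KO 4147 and 3776 (−0.55 ± 0.058). The order of the knockouts was thus the reverse of that for Lama1, with the larger decrease in Mettl14 KO (difference of the changes 0.37 ± 0.082, adjusted p = 0.00147).

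Lamc1, the gamma chain of most laminins (chr1:153218922-153332786), had 11488 and 12027 normalized counts in WT26 against 7924 and 8408 in its knockout (−0.53 ± 0.053). It fell in Mettl3 KO, from 19123 and 18831 to 8164 and 7966 (−1.23 ± 0.054, adjusted p = 4.03e-12). RBC started from a higher level than WT26 (0.69 ± 0.053) and the knockout libraries of both overlapped.

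Lamb1, the beta chain of the same trimers (chr12:31265234-31329644), moved in opposite directions. In Mettl14 KO it was higher, 1425 and 1360 against 1057 and 1083 (0.38 ± 0.056, adjusted p = 2.01e-05), and in Mettl3 KO it fell to 35.7%, 829 and 927 against 2453 and 2468 (−1.49 ± 0.056, adjusted p = 6.79e-13). The changes themselves differed by −1.87 ± 0.080 (adjusted p = 9.82e-12). The controls did not start level: RBC had 230% of the WT26 amount (1.20 ± 0.055). Lamb2, the other widely expressed beta chain, was lower in both (−0.51 ± 0.067 and −0.79 ± 0.067).

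Lama3 and Lamb3 are chains of the laminin that anchors epidermis. Lama3 fell in Mettl3 KO, from 329 and 351 to 130 and 144 normalized counts (−1.32 ± 0.10), and was lower in Mettl14 KO, 283 and 306 against 440 and 458 (−0.61 ± 0.087). Lamb3, at 8.06 to 32.2 normalized counts over all libraries, fell in Mettl3 KO (−1.26 ± 0.41, adjusted p = 0.0144).

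Lama4, an alpha chain of blood vessel laminin, had its highest level in WT26. WT26 had 174 and 186 normalized counts and its knockout 23.0 and 24.4, or 13.2% (−2.92 ± 0.21, adjusted p = 3.61e-09). RBC had 36.8 and 45.4 and its knockout 8.70 and 19.1 (−1.60 ± 0.31, adjusted p = 0.000286). The changes differed by 1.32 ± 0.42 (adjusted p = 0.016), which came to 0.68 and was no longer called without replicate 2 of Mettl3 KO.

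Levels of different chains can be compared per length, as normalized counts per kb of merged exons. Of 5 chains set side by side on this scale, WT26 had most of Lamc1 (mean 1421), then of Lama1 (1164), Lama5 (573), Lamb2 (138) and Lamb1 (108). Each beta chain lay below Lama1 and Lamc1 in every line. Lama1 exceeded Lama5 per kb in Mettl14 KO (406 against 303) and lay below it in Mettl3 KO (289 against 348). In Mettl3 KO the levels per kb of Lamb1 (83.6 and 93.4) and Lamb2 (89.8 and 94.2) overlapped. Merged exons came to 9917 bases for Lamb1 and 6082 for Lamb2, whereas a representative transcript of each has 5557 and 5629 bases. The order and overlap of these beta chains thus depend on the length used.

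Collagen IV is built from Col4a1 and Col4a2, whose genes lie head to head on chromosome 8 (Col4a1 chr8:11198423-11312826, minus strand, and Col4a2 chr8:11312805-11449287, plus strand). Their annotated first exons share 22 bases, chr8:11312805-11312826. The shared stretch is shown because it ties the starts of both genes, read on the plus strand of GRCm38 from the reference genome, with GGGCGG, a GC box, in capitals.
Col4a1 and Col4a2 overlap: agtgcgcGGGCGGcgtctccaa

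Both chains were lower in both knockouts. Col4a1 had 4303 and 4582 normalized counts in WT26 and 2210 and 2261 in its knockout, 50.3% of the control and just inside the size limit (−0.99 ± 0.045), which it passed without replicate 1 of WT26 (−1.04) and without replicate 2 of Mettl14 KO. It fell in Mettl3 KO, from 1535 and 1571 to 716 and 689 (−1.14 ± 0.051). Col4a2 fell in Mettl14 KO, to 740 and 795 from 1582 and 1636 (−1.07 ± 0.063), and was lower in Mettl3 KO, 304 and 331 against 550 and 540 (−0.78 ± 0.074). For both chains the control lines differed, in value, by more than either knockout did from its control, RBC having 35.0% of the WT26 level of Col4a1 (−1.52 ± 0.047) and 33.9% of that of Col4a2 (−1.56 ± 0.066).

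Col18a1, the chain that yields endostatin, was lower in both knockouts short of the size limit (−0.98 ± 0.050 and −0.58 ± 0.046), with 940 and 930 normalized counts against 1841 and 1853 and 2574 and 2406 against 3823 and 3608. Unlike collagen IV it stood higher in RBC than in WT26 (1.01 ± 0.047). Col4a5, at 11.0 to 29.6 normalized counts, fell in Mettl3 KO (−1.04 ± 0.38, adjusted p = 0.0268). Col4a3, Col4a4, Col4a6 and Col15a1 did not pass the filter.

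Nidogen and the matrix glycoproteins were also lower. Nid1, the linker of laminin and collagen IV (chr13:13437551-13512269), fell in Mettl3 KO from 2928 and 2789 to 1419 and 1380 normalized counts (−1.03 ± 0.051), a call that was lost without replicate 1 of RBC (−0.997). In Mettl14 KO it was lower, 2055 and 2249 against 3890 and 3896 (−0.85 ± 0.050). Sparc, a glycoprotein that binds collagen, fell in Mettl3 KO from 8588 and 8599 to 3654 and 3936 (−1.18 ± 0.055) and was lower in Mettl14 KO, 2766 and 2988 against 5080 and 5324 (−0.85 ± 0.055).

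Nid2 was lower in both knockouts (−0.32 ± 0.048 and −0.92 ± 0.048), with 4119 to 4405 normalized counts in the knockout libraries and 5358 to 7843 in the controls. Fn1, the ligand of Itga5, had 22479 and 21553 in WT26 and 16810 and 17806 in its knockout (−0.35 ± 0.057), and 22381 and 21263 in RBC and 15160 and 13930 in its knockout (−0.59 ± 0.058). Perlecan was the exception. Hspg2 was lower in Mettl14 KO (−0.34 ± 0.10, adjusted p = 0.0065), while in Mettl3 KO its libraries (6022 and 4705) overlapped those of RBC (6552 and 5723), with a value of −0.19 ± 0.10 (adjusted p = 0.0987).

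Of 15 tested integrin chains 1 fell and 1 rose in Mettl14 KO, and 3 fell in Mettl3 KO. In Mettl3 KO 11 had an unadjusted p under 0.05 by edgeR in either direction, as had 9934 of all 17021 genes tested. Itga3, a laminin-binding chain (chr11:95044474-95076801), had 1772 and 1896 normalized counts in WT26 and 615 and 635 in its knockout. RBC had 1748 and 1854 and its knockout 555 and 560. The controls stood at one level and the knockouts at another, with no overlap. Itga3 fell to 34.1% in Mettl14 KO (−1.55 ± 0.058, adjusted p = 7.36e-13) and to 30.9% in Mettl3 KO (−1.69 ± 0.059, adjusted p = 2.14e-13). The difference of the changes was −0.14 ± 0.082 (adjusted p = 0.179).

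Itgb1, the partner of most alpha chains (chr8:128685654-128733200), had 6509 and 6842 normalized counts in WT26 and 5600 and 5847 in its knockout (−0.22 ± 0.051). It fell in Mettl3 KO from 7458 and 7637 to 3648 and 3776 (−1.02 ± 0.052), a call lost without replicate 1 of Mettl3 KO (−0.995). Itga6, a second laminin-binding chain (chr2:71745616-71858416), showed a like contrast, with 5213 and 5205 against 5755 and 5891 in Mettl14 KO (−0.16 ± 0.050) and 2896 and 3130 against 5654 and 5701 in Mettl3 KO (−0.91 ± 0.051). For both genes the decrease was larger in Mettl3 KO (difference −0.80 ± 0.072 for Itgb1 and −0.75 ± 0.071 for Itga6, adjusted p = 1.06e-07 and 1.91e-07), though under the size limit. Itga5, the fibronectin-binding chain, was lower in both, 1457 and 1463 against 1802 and 1915 (−0.35 ± 0.052) and 1157 and 1188 against 1900 and 1750 (−0.64 ± 0.053).

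Itgb3 and Itga8 differed between the knockouts. Itgb3, a beta chain of vitronectin receptors, was higher in Mettl14 KO, 153 and 132 against 73.2 and 88.0 normalized counts (0.83 ± 0.16), and lower in Mettl3 KO, 56.5 and 43.3 against 102 and 94.6 (−0.96 ± 0.19), a difference of −1.80 ± 0.25 (adjusted p = 1.36e-05). Its decrease in Mettl3 KO passed the size limit without replicate 2 of RBC (−1.02) or replicate 1 of Mettl3 KO (−1.18). Itga8, which pairs with Itgb1 and binds nephronectin, fell in Mettl3 KO from 187 and 172 to 47.0 and 38.3 (−2.06 ± 0.19). In WT26 it had 44.3 and 67.6 and in its knockout 45.1 and 48.7 (−0.23 ± 0.22, adjusted p = 0.395). RBC was the line that stood apart for Itga8. The rise among integrins was that of Itga2b, the platelet chain, in Mettl14 KO (69.1 and 59.4 against 19.9 and 32.2, 1.32 ± 0.26). Of the genes that encode no integrin chain, Itgb1bp2, a muscle protein, was higher in both (0.45 ± 0.12 and 0.81 ± 0.11).

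**Figure D2:**
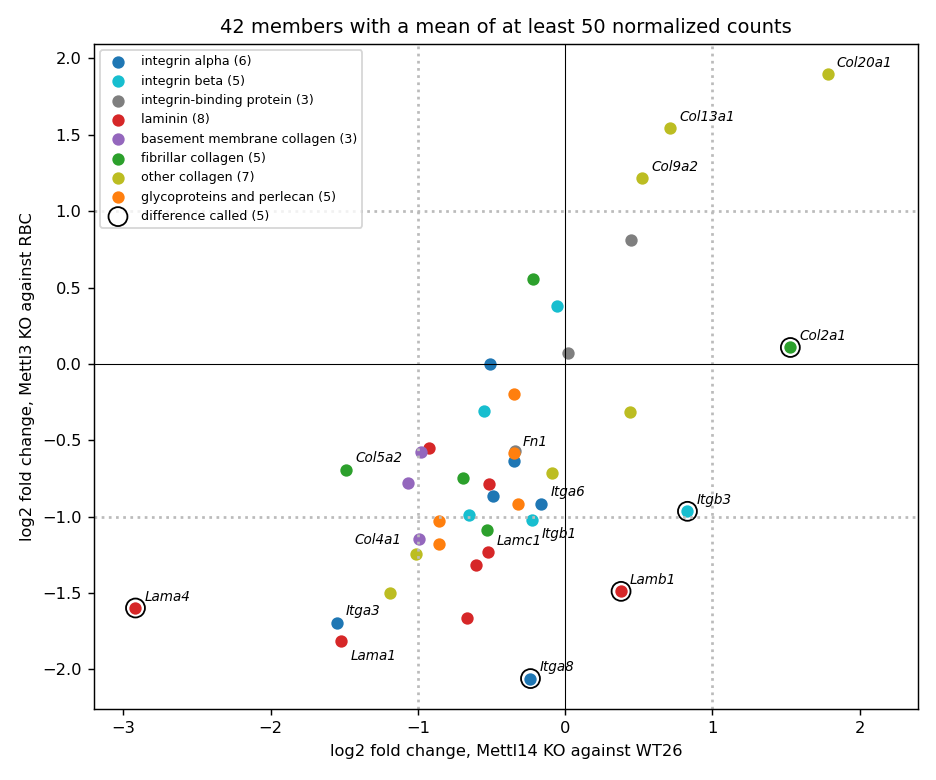
Log2 fold changes of the 42 members whose mean was 50 or more normalized counts, Mettl14 KO against WT26 (x axis) and Mettl3 KO against RBC (y axis), coloured by family, with rings on the 5 members whose changes differed by the test. Of the 42 members 30 lie below 0 on both axes, Lamb1, Itgb3 and Col22a1 lie above 0 on the x axis and below 0 on the y axis, and Col20a1 lies highest on both.

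Collagens outside the basement membrane did not share a direction. Of 9 tested fibrillar chains 1 fell and 1 rose in each knockout (medians −0.22 in Mettl14 KO and 0.064 in Mettl3 KO), and of 15 other chains 4 fell and 3 rose in each. Col5a2, a fibrillar chain of collagen V, fell in Mettl14 KO from 253 and 279 to 105 and 84.8 normalized counts (−1.49 ± 0.13) and was lower in Mettl3 KO, 126 and 116 against 195 and 196 (−0.69 ± 0.13). Col5a3, another chain of collagen V, fell in Mettl3 KO from 228 and 230 to 110 and 106 (−1.08 ± 0.12) and was lower in Mettl14 KO, 158 and 174 against 232 and 250 (−0.53 ± 0.11). The remaining chain of this collagen, Col5a1, was lower in both (−0.69 ± 0.13 and −0.75 ± 0.12).

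Col2a1, the main collagen of cartilage, rose in Mettl14 KO from 24.4 and 24.7 to 73.1 and 69.2 normalized counts (1.53 ± 0.23). In Mettl3 KO its libraries (108 and 117) lay between those of RBC (86.2 and 120), with a value of 0.11 ± 0.17. The changes differed by −1.42 ± 0.29 (adjusted p = 0.00065), and RBC stood above WT26 (2.08 ± 0.22).

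Col20a1, a collagen with interrupted triple helices, rose in both knockouts. WT26 had 40.7 and 46.2 normalized counts and its knockout 152 and 146 (1.78 ± 0.18), RBC 75.9 and 64.1 and its knockout 289 and 229 (1.90 ± 0.15). Col13a1, a transmembrane collagen, rose in Mettl3 KO from 79.3 and 82.8 to 248 and 225 (1.54 ± 0.14) and was higher in Mettl14 KO (0.71 ± 0.14). Col9a2, a cartilage chain, rose in Mettl3 KO from 83.9 and 80.8 to 178 and 206 (1.22 ± 0.15) and was higher in Mettl14 KO (0.52 ± 0.15). These were the rises among the other chains at a mean of 50 or more.

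Falls shared by both knockouts included chains of collagen VI, which forms beaded filaments. Col6a4 had 96.6 to 115 normalized counts in the control libraries and 41.7 to 58.5 in the knockouts (−1.01 ± 0.17 and −1.25 ± 0.18). Col6a5 had 56.1 and 37.6 in WT26 and 19.0 and 22.4 in its knockout (−1.19 ± 0.27), and 109 and 97.6 in RBC and 34.8 and 38.3 in its knockout (−1.50 ± 0.21). In Mettl14 KO the call of Col6a4 was lost without replicate 1 of Mettl14 KO (−0.94) and that of Col6a5 without replicate 1 of WT26 (−0.86). A further 8 members with a mean under 50 were called in a knockout. Col6a3 fell in both, being at least 4.32-fold lower in Mettl3 KO by a floor of 3 counts per library, and Col14a1 fell in both (−2.13 ± 0.47 and −2.19 ± 0.59). Col6a6 rose in Mettl14 KO, at least 3.69-fold by the same floor, Col23a1 rose there too (1.72 ± 0.48), and Col1a2 rose in Mettl3 KO (2.26 ± 0.45).

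The difference of the knockout changes was called for 7 of the 61 members, against 14.0% of all genes. Besides Lamb1, Itgb3, Itga8, Col2a1 and Lama4 these were Lama2 and Col6a6, both at low counts. By library size the median of all genes went from 0.00101 to 0.18, the members called went from 1 positive and 6 negative to 2 and 6, and the share of positive calls over all genes from 42.2% to 58.1%. Between the control lines 11 members were called, against 8.98% of all genes, 7 higher and 4 lower in RBC. The largest at a mean of 50 or more were Lama4 (−2.12 ± 0.20), Col2a1, Itga8 (1.70 ± 0.18), Col4a2 and Col4a1. By library size the median of all genes went from −0.00699 to −0.16, with 5 members higher and 5 lower, and a share of higher calls of 40.9% in place of 54.1%.

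Start regions are shown for a gene that fell in both knockouts (Itga3), a gene that fell in 1 and was lower in the other (Nid1) and a gene that was higher in Mettl14 KO and fell in Mettl3 KO (Lamb1). They are RefSeq sequences on GRCm38 from before the annotated start, on the strand of the gene, with GGGCGG and its reverse complement CCGCCC in capitals.
Itga3, chr11:95076802-95076964, minus strand: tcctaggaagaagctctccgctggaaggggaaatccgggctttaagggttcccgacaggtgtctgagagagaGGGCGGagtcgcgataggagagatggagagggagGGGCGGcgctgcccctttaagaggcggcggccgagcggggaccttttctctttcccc
Nid1, chr13:13437352-13437550, plus strand: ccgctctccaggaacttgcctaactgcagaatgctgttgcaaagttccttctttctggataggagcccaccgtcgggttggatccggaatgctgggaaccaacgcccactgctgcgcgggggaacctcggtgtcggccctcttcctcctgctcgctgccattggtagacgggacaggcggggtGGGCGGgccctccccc
Lamb1, chr12:31265043-31265233, plus strand: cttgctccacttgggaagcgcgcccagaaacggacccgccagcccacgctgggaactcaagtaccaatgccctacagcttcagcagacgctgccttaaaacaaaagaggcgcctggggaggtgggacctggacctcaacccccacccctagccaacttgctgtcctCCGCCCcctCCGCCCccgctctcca

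The GC box was searched on both strands in the 250 bases before the start. It was present in 30 of the 59 members with a RefSeq promoter (50.8%) and in 35.4% of all 27025 promoters. Of the 28 members lower in both knockouts 17 had a promoter, and 11 of these held the box (64.7%). Lama1, Lamc1, Nid2 and Lama4 were among those without one. The 17 had passed the filter on low counts and the limit on p, whereas all promoters include genes not tested, so these shares are of unlike sets. Itga3, lower in both knockouts, and Lamb1, higher in Mettl14 KO, each held it at 2 places.

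Markers of other cell types moved beside these genes, and their part in the changes was not tested. All 10 ES cell markers were tested. Their summed level was 39628 to 40508 normalized counts in WT26, 27737 to 27921 in its knockout, 35639 to 35860 in RBC and 21881 to 22330 in its knockout, with 0 falls in Mettl14 KO (10 lower by edgeR) and 2 in Mettl3 KO (9 lower). Klf4, a pluripotency factor, was higher in Mettl3 KO, 1868 and 1852 normalized counts against 1255 and 1230 (0.58, adjusted p = 3.95e-08 by edgeR). Of 12 markers of primitive and parietal endoderm, which secretes basement membrane, 8 were tested. In Mettl14 KO 6 of them rose and in Mettl3 KO 2 fell, with sums of 176.1 to 193.5 in WT26, 565.0 to 583.9 in its knockout, 260.9 to 267.2 in RBC and 173.9 to 216.6 in its knockout. Sox17 was at most at 10.4 and Foxa2 at most at 3.62 normalized counts in any library. Of 10 fibroblast markers 5 were tested, 2 fell in Mettl14 KO and 3 in Mettl3 KO, and Dcn, Prrx1 and S100a4 were at 0 in all libraries. Their sums were 155.5 to 155.7 in WT26, 74.0 to 80.1 in its knockout, 306.9 to 330.3 in RBC and 66.5 to 69.6 in its knockout.

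Genes that act with the members were counted as 4 lists. Of all 17021 genes tested 1353 rose and 1118 fell in Mettl14 KO, and 1047 rose and 1265 fell in Mettl3 KO. On p alone 4336 were higher and 4594 lower in Mettl14 KO, and 4296 were higher and 4789 lower in Mettl3 KO. Of 30 tested genes of matrix processing 7 rose and 2 fell in Mettl14 KO, and 3 rose and 4 fell in Mettl3 KO. On the limit for p alone 12 of these 30 were higher and 11 lower in Mettl14 KO, and 5 were higher and 15 lower in Mettl3 KO. Loxl4, an oxidase of the family that crosslinks matrix, fell in Mettl14 KO from 24.4 and 12.9 normalized counts to 1 in one library and 0 in the other. Timp2, an inhibitor of matrix metalloproteinases, rose in both (3.19 and 1.60), as did Loxl1, a relative of Loxl4 (2.02 and 2.27). Of 28 adhesion adaptors, which tie integrins to actin, 1 rose and 2 fell in Mettl14 KO, and 2 rose and 2 fell in Mettl3 KO. On p alone Mettl14 KO had 7 of them higher and 13 lower, while Mettl3 KO had 8 higher and 13 lower. Their summed normalized counts were 69601.3 and 69916.5 in WT26, 45736.0 and 46763.2 in its knockout, 88781.9 and 89734.4 in RBC and 56013.8 and 57218.8 in its knockout, lower in each knockout than in its control. Flna, an actin crosslinker, fell in Mettl14 KO (−1.12), and Parva, an adaptor of the integrin-linked kinase, rose in Mettl3 KO (1.27).

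Of 19 other matrix receptors 4 rose and 2 fell in Mettl14 KO, and 3 fell in Mettl3 KO. On p alone Mettl14 KO had 7 of these higher and 4 lower, while Mettl3 KO had 4 higher and 6 lower. Bcam, a receptor for Lama5, fell in Mettl3 KO and stood at the size limit in Mettl14 KO. WT26 had 2303 and 2291 normalized counts and its knockout 1171 and 1126, and RBC had 4363 and 4303 and its knockout 1104 and 1205. Gpc1, a heparan sulfate proteoglycan, rose in Mettl14 KO, to 310 and 334 from 93.1 and 91.3, and Cd44, a hyaluronan receptor, fell in Mettl3 KO (−1.74). Of 23 other matrix proteins 4 rose and 2 fell in each knockout, with 8 higher and 5 lower on p alone in Mettl14 KO, while Mettl3 KO had 9 higher and 6 lower. Fras1 (2.33 and 1.58), a protein of embryonic basement membranes, and Matn2 (2.19 and 1.08) rose in both, and Ltbp3, which binds latent TGF-beta, rose in Mettl3 KO (2.25).

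The MeRIP inputs measured the same lines a second time, with a wider spread (biological coefficient of variation 0.273, against 0.0625 in RNA-seq). Whether they came from the same RNA preparations as RNA-seq is not stated. Of the 82 members 66 were tested in MeRIP-seq. In Mettl14 KO 2 fell, against 0.274% of the 22621 features tested, and in Mettl3 KO 4 fell, against 0.570%. Lama1 fell in both. The WT26 inputs had 7266 and 9060 normalized counts of it and those of its knockout 2557 and 2868 (−1.59 ± 0.30, adjusted p = 0.0373). RBC inputs had 6023 and 5418 and those of its knockout 1860 and 2156 (−1.51 ± 0.30, adjusted p = 0.0299). Lama4 fell in Mettl14 KO (−2.98 ± 0.59). Lamc1 (−1.23 ± 0.23) and Nid1 (−1.28 ± 0.26) were among the falls in Mettl3 KO, where Col20a1 rose (1.88 ± 0.37).

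These input counts depended on the fit, as did those over all features, which also dropped with 1 library left out. With a replicate block 5 members fell in Mettl14 KO and 6 in Mettl3 KO, and with a separate number effect for inputs and IPs 8 and 9. Falls over all features went from 62 to 223 and 477 in Mettl14 KO with these blocks. In Mettl3 KO they went from 129 to 291 and 581. Without any 1 of the libraries compared, 0 members fell in Mettl14 KO, and in Mettl3 KO 0 fell, or 1 without replicate 2 of the RBC inputs. By library size 1 member fell and 1 rose in Mettl3 KO (the median of all features went from 0.00845 to 0.13), and the share of rises over all called features went from 24.1% to 35.0%.

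IP over input gives the recovery of a transcript with the m6A antibody relative to the median feature. Members lay on the low side. By edgeR 0 members were enriched (adjusted p at most 0.05 and a log2 ratio above 1) in WT26, against 14.5% of features, and 0 in RBC, against 13.4%. DESeq2 gave 0 in each, and 12 and 13 members had an unadjusted p under 0.05 in either direction. Of all 22621 features 10440 in WT26 and 9807 in RBC were under that limit by edgeR. Depleted, with a log2 ratio below −1, were 7 of the 66 members tested in WT26 (13.5% of features) and 6 in RBC (11.1%). Depletion was thus no more common among members than over all features. Both lines shared 6, namely Lama1, Lama5, Fn1, Hspg2, Col20a1 and Itgb1bp2.

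Lama5 had 6229 and 5864 normalized counts in the WT26 inputs and 2169 and 1120 in the IPs (−1.88 ± 0.42, adjusted p = 0.00841). In RBC the inputs had 5657 and 3750 and the IPs 2067 and 748 (−1.74 ± 0.42, adjusted p = 0.0127). Every IP lay below every input, replicate 2 having the lower IP in both lines. Lama1 went from 7266 and 9060 in the inputs to 4228 and 2745 in the IPs of WT26 (−1.23 ± 0.29), and from 6023 and 5418 to 3550 and 2044 in RBC (−1.03 ± 0.29). Fn1 went from 24558 and 20136 to 13941 and 5969 in WT26 (−1.17 ± 0.37) and from 23966 and 28846 to 13853 and 9958 in RBC (−1.15 ± 0.37). Lama1 and Fn1 thus showed the same direction in both control lines.

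Hspg2 stood at −1.22 ± 0.26 in WT26 and −1.14 ± 0.26 in RBC, Itgb1bp2 at −1.28 ± 0.26 and −1.17 ± 0.26, and Col20a1 at −1.86 ± 0.41 and −1.14 ± 0.38. With a replicate block that has its own number effect in inputs and in IPs, 4 members were depleted in each line, Lama5, Hspg2 and Itgb1bp2 in both. Of all 22621 features 2415 in WT26 and 1877 in RBC were depleted in that fit. Fn1 (−0.96 and −0.87) and Lama1 (−0.98 and −0.81) were not called there, nor was Col20a1 in RBC (−0.99). With input and IP as pairs in the block, 1 member was enriched in WT26, against 3277 of all features.

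These counts also turned on single libraries. Each such fit leaves 1 library in its group. Depleted features over the whole dataset moved in the same fits, in WT26, RBC and Mettl14 KO alike. They went down without replicate 1 or 2 of the inputs or replicate 2 of the IPs, and up without replicate 1 of the IPs. Such swings are thus no trait of the members. In WT26 0 members were depleted without replicate 2 of the inputs or replicate 2 of the IPs. In RBC 0 were depleted without replicate 2 of either, 1 without replicate 1 of the inputs and 11 without replicate 1 of the IPs.

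Some integrin alpha chains stood on the other side of 0, whereas Itga1, Itga4, Itga8 and Itga9 were negative in both control lines. Positive ratios were not confined to this family. Col6a4 had the highest of the 41 members with a mean of at least 50 (1.25 in WT26 and 1.03 in RBC, not called). Itgb5 (0.75 and 0.72) and Col2a1 (0.71 and 0.82) were positive in both lines too. Itga6 had 3254 and 2953 normalized counts in the inputs and 4558 and 5774 in the IPs of RBC (0.73 ± 0.24, adjusted p = 0.0364), and 3587 and 3066 against 4676 and 5708 in WT26 (0.64 ± 0.24, adjusted p = 0.0522). Itga5 had 0.79 ± 0.34 in WT26 and 0.75 ± 0.34 in RBC, and Itga3 0.57 ± 0.37 and 0.58 ± 0.37, without passing the limit on p. Itgb1 (−0.29 and −0.21) and Lamc1 (−0.039 and −0.040) were near 0.

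Which members count as depleted or enriched depended on the scaling. By library size the median of all features went from 0.02 to 0.45 in WT26, from 0.01 to 0.45 in Mettl14 KO, from 0.02 to 0.49 in RBC and from −0.01 to 0.37 in Mettl3 KO. On that scale WT26 had 4 enriched and 2 depleted members, Mettl14 KO 4 and 2, RBC 6 and 1, and Mettl3 KO 1 and 0. The share of enriched among all called features went from 51.6% to 78.3% in WT26, from 54.6% to 84.6% in Mettl14 KO, from 54.8% to 84.7% in RBC and from 57.8% to 90.5% in Mettl3 KO.

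**Figure D3:**
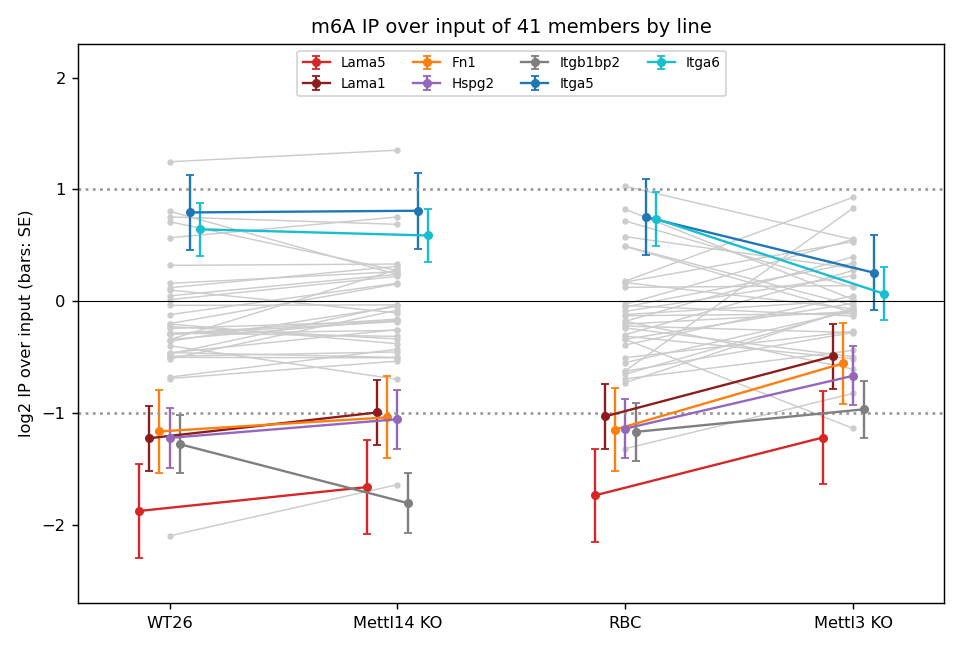
Log2 IP over input of the 41 members whose mean was 50 or more normalized counts in the control MeRIP libraries, in each of the 4 lines, with 7 genes in colour and their SE as bars. Lama5, Lama1, Fn1, Hspg2 and Itgb1bp2 lie below −1 in WT26 and RBC, Itga5 and Itga6 lie above 0, and the points of Mettl3 KO spread least.

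In the knockouts 0 members had a called change of IP over input, by edgeR and by DESeq2. Over all 22621 features edgeR called 0 in each knockout. DESeq2 called 1 feature in Mettl14 KO and 0 in Mettl3 KO, so the lack of calls is no trait of the members. At an unadjusted p under 0.05 edgeR gave 0 members in Mettl14 KO and 1 in Mettl3 KO, Col6a3, at low counts (−3.18 ± 1.47). These are values of the fit without a replicate block. With a separate number effect for inputs and IPs 359 features were under that limit in Mettl14 KO, where the fit without a block had 126, and 0 members. In Mettl3 KO there were 4569 features in place of 787, and 7 members. By edgeR 0 members were called with either block, and of all features 1 in Mettl14 KO and 0 in Mettl3 KO. With input and IP as pairs the members were 0 and 0. Depletion was called for 4 members in Mettl14 KO (9.91% of features), or for 7 with input and IP as pairs in a replicate block (2149 of 22621 features). Without replicate 1 or 2 of the inputs or replicate 2 of the IPs it was called for 1, and without replicate 1 of the IPs for 9. In Mettl3 KO it was called for 0 members by edgeR (1.86% of features) and for 1 by DESeq2. There 6 members had an unadjusted p under 0.05 by edgeR, as had 5803 of 22621 features.

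In value the ratios of many of these genes lay closer to 0 in Mettl3 KO. Lama5 stood at −1.22 ± 0.41 there against −1.74 in RBC, Fn1 at −0.56 ± 0.36 against −1.15, and Lama1 at −0.49 ± 0.29 against −1.03. From the other side Itga6 stood at 0.065 ± 0.24 against 0.73 and Itga5 at 0.25 ± 0.34 against 0.75. Sparc lay further from 0 in Mettl3 KO, at 0.93 against 0.18 in RBC. Of the 41 members with a mean of at least 50, 29 were negative in RBC and 23 of these had a positive change, and 12 were positive and 9 of these had a negative one. Change and starting value share the RBC libraries, so these counts are a description. In Mettl14 KO 21 of 28 negative members had a positive change and 5 of 13 positive members a negative one.

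The log2 ratios of these members had an SD of 0.697 in WT26, 0.661 for its knockout, 0.628 for RBC and 0.486 for its knockout. For 10942 protein-coding genes these SDs were 0.906, 0.874, 0.876 and 0.648, with the lowest value in Mettl3 KO there too. The SE of a change among them was 0.306 to 1.03 in the fit without a block, with a median of 0.474 for Mettl14 KO and 0.472 for Mettl3 KO. With a separate number effect for inputs and IPs the median SE was 0.332 and 0.339.

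Exon structure was set beside the ratios as a description, with length limits chosen after the values were seen. All 8 members whose longest exon is under 500 bases had a negative mean ratio over WT26 and RBC, with a median of −0.64. They were Lama1, Lama3, Lama5, Lamb1, Lamb2, Itgb4, Itgb7 and Itgb1bp2. Lama1 has 63 exons, the longest of 359 bases, and Lama5 has 79, the longest of 392 bases. Of 11 members whose longest exon is at least 500 and under 1000 bases 6 were positive (median 0.05), and of 22 with a longer one 7 were (median −0.25). Protein-coding genes had medians of −0.07, 0.14 and 0.39 in these classes. Across the 41 members Spearman's rho with the ratio was 0.15 for the longest exon, −0.16 for the number of exons and 0.02 for the density of GGACT, a form of the m6A motif, on the transcript strand. Across protein-coding genes it was 0.19, −0.48 and 0.09. All points come from the same libraries.

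**Figure D4:**
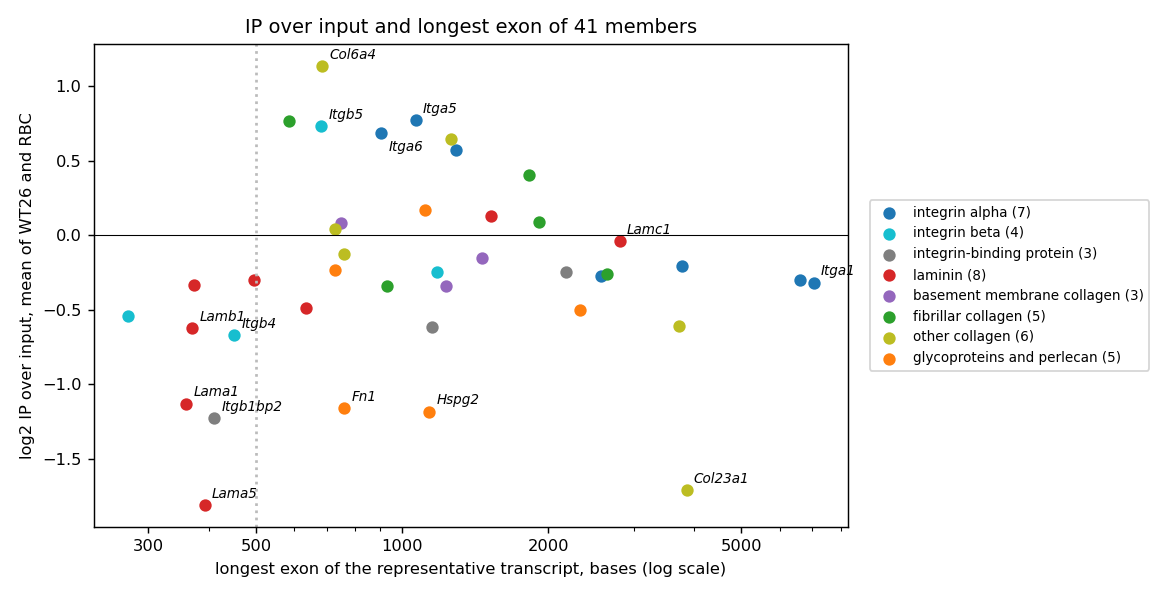
Mean log2 IP over input of WT26 and RBC for 41 members against the longest exon of the representative transcript in bases (log scale), coloured by family, with a dotted line at 500 bases. The 8 members left of the line, Lama1 and Lama5 among them, all lie below 0, and members to the right lie on both sides of 0.

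Some counts may hold reads of neighbours. Exons of 26 members overlap those of another gene, such as Nid2 with Rtraf, Fn1 with Apol7d and Col4a1 with Col4a2 on opposite strands, and Itga1 with Gm49395 on the same strand. Whether the strand was used in counting is not given in the sources used here.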

How the data were processed

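RNA-seq and MeRIP-seq of 4 mouse ES cell lines were analysed from the raw counts that the authors deposited, per gene (47937) for RNA-seq and per gene and repeat subfamily (1153) for MeRIP-seq. The submitters' processing notes name cutadapt 1.8.1, STAR 2.6.0c and GRCm38. MeRIP-seq was counted with TEtranscripts, which shares out multimapping reads. Each MeRIP replicate pooled several reactions, so that differences between reactions are averaged within a replicate and cannot be seen singly. The tool that counted RNA-seq is not given in the sources used here.

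Each dataset was fitted whole with edgeR 4.0.16 in R 4.3.3 (quasi-likelihood test, filterByExpr, size factors of DESeq2 1.42.0, Benjamini-Hochberg adjustment), over 17021 genes in 4 groups and 22621 features in 8. Called were features with an adjusted p up to 0.05 whose log2 fold change exceeded 1 in size, and for the change of IP over input those with the adjusted p alone. Scripts were tested on simulated data. Library totals bear on counting error only.

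Positions and exons are from GENCODE vM21, in which 55 of the 82 members have the same versioned identifier. Promoters are from RefSeq (GRCm38). Members and gene lists were chosen with earlier results of these data known. Named were 15 fixed genes, members called in a knockout at a mean of 50 normalized counts or more, those depleted in both controls, those whose knockout changes differed, the 5 largest differences between the controls and up to 5 examples at low counts. Other members named (such as Lamb2, Lamb3, Lama2, Col18a1, Col4a5, Col5a1, Col22a1, Itga2b and Itgb4) and the GC box were added after their values were seen. The values of some single genes are not reported here. Alternatives were DESeq2's Wald test, TMM, scaling by library size, other filters on low counts, only the libraries compared, genes without repeats, replicate blocks and leaving out each library.

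The labels number the replicates. Same-numbered MeRIP libraries deviated together. Between IPs of different lines r was 0.598 to 0.806, and between inputs of different lines 0.251 to 0.452. Between input and IP it was 0.195 to 0.280 within a line and −0.00279 to 0.128 across lines. The labels do not say that the input and the IP of a number are a pair. Reported values come from the fit without a block, as planned, and values with a block stand beside them where they change a call or a count. A block with separate number effects in inputs and IPs was added after this was seen.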

Additional observations from a re-analysis of the deposited data

Results flagged for a closer look

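For 7 of the 61 members tested the changes of the knockouts differed, against 14.0% of all genes. The test was of the difference itself (Mettl3 KO change minus Mettl14 KO change, edgeR's quasi-likelihood test with Benjamini-Hochberg adjustment). The differences were −1.87 for Lamb1, −1.82 for Itga8, −1.80 for Itgb3, −1.47 for Lama2, −1.42 for Col2a1 and 1.32 for Lama4. For Col6a6 the fitted value was −3.95, which is no bound because WT26 (0 and 3.22 normalized counts) was at the floor. The control lines differed too for Lamb1 (1.20), Itga8 (1.70), Col2a1 (2.08) and Lama4 (−2.12), RBC against WT26, so that a difference between knockouts and one between their parent lines cannot be told apart. Groups of 2 libraries were too small to look for single outlying libraries.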

How the results depend on the processing

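For single genes 858 of 924 values kept their direction and call, and 2 changed sign: Col2a1 in Mettl3 KO (−0.10 without replicate 1 of RBC, and up to 0.38 without the other) and Itga8 in Mettl14 KO (0.079 without replicate 2 of WT26, and down to −0.53 without the other), neither called before or after. Of 316 counts of members 247 stayed within 1.5 times. In RNA-seq, rises in Mettl14 KO numbered 3 by DESeq2 and 3 with at least 10 counts in every library, in place of 5, and positive differences of the knockout changes numbered 2 by library size, in place of 1. By library size Col4a1, Col5a3, Itgb1 and Nid1 lost their fall in Mettl3 KO. In RNA-seq same-numbered libraries did not deviate together in both pairs of lines (r of −0.0713 and 0.453), and a replicate block left 5 rises and 9 falls for Mettl14, 4 and 19 for Mettl3.

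In the inputs, falls in Mettl14 KO (2) numbered 6 by DESeq2, 7 without a filter, 1 with at least 10 counts, 7 with only the libraries compared, 5 with a replicate block and 8 with separate number effects, and rises (0) numbered 1 with only the libraries compared and 2 with separate effects. Falls in Mettl3 KO (4) numbered 1 by library size, 7 without a filter, 7 with only the libraries compared and 9 with separate number effects, and rises (1) numbered 3 without a filter, 2 with a replicate block and 3 with separate effects. For IP over input, WT26 had 4 enriched and 2 depleted by library size, Mettl14 KO 4 and 2, RBC 6 and 1, and Mettl3 KO 1 enriched. In WT26 1 was enriched without a filter, with only the libraries compared and with a block of pairs, and 4 were depleted with separate number effects. In Mettl14 KO 1 was enriched by DESeq2 and without a filter, and 7 were depleted with a block of pairs and 7 with genes only. In RBC 2 were depleted with only the libraries compared. In Mettl3 KO 1 was enriched with separate effects, and 1 was depleted by DESeq2, without a filter, with only the libraries compared and with genes only. The cause was not tested. The replicate block moved no other count by over 1.5 times. Counts over all features moved with these settings too, for example falls in the Mettl14 KO inputs from 62 to 218 by DESeq2. They also moved when 1 library was left out.

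Leaving out 1 library gave 3 to 5 rises in Mettl14 KO, 0 to 2 positive differences, 0 input falls in Mettl14 KO, 0 input rises and 0 to 1 falls in Mettl3 KO, and of enriched and depleted members 0 to 2 and 0 to 9 (WT26), 0 to 3 and 1 to 9 (Mettl14 KO) and 0 to 2 and 0 to 11 (RBC). The 3 rises came without replicate 1 of WT26. No positive difference was called without replicate 2 of Mettl3 KO. No change of IP over input was called with any 1 library left out.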
